A study of Rattus norvegicus with 12 samples.

Results

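Calcium/calmodulin-dependent protein kinases were followed through 19 of the 31042 probe sets of a rat forebrain array series. A probe set is a group of short probes on the array that reads 1 transcript or part of it, and it was kept where the platform annotation gave it exactly 1 gene symbol and that symbol was one of 10 kinase genes. Of these, 9 genes were found: Camk1, Camk1g, Camk2a, Camk2b, Camk2d, Camk2g, Camk4, Camkk1 and Camkk2. Camk1d was matched to no probe set and was not analysed here. Camk1 and Camkk1 had 1 probe set each, Camk1g, Camk2b, Camk2g, Camk4 and Camkk2 had 2, Camk2d had 3 and Camk2a had 4.

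The exposed group was 6 animals kept for 3 hours in surroundings new to them, with objects that differed in shape and colour, and the control group was 6 animals left in a standard laboratory cage. All 12 animals were male Long Evans rats, an outbred strain, of 6 weeks, and each had lived singly for some days beforehand. Total RNA of the forebrain of each animal was read on 1 array, so values are averages over many cell types and regions at 1 time point. Values are the deposited intensities in arbitrary linear units, changes are log2 differences (exposed minus control, with the standard error, SE, of a limma fit over all probe sets), and p-values are adjusted by Benjamini-Hochberg over 31042 probe sets. The animals' profiles were alike (median correlation with the own group 0.995 to 0.998), and 3 animals stood apart. Exposed 3 and exposed 5 had the lowest correlations, and control 4 had markers of olfactory bulb and neuroblasts at a mean log2 intensity of 8.65, against at most 7.33 in any other animal.

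Calcium that enters an active neuron binds calmodulin, and calcium-loaded calmodulin frees these kinases from their own inhibitory segment. CaMKII, assembled from the alpha, beta, delta and gamma subunits that Camk2a, Camk2b, Camk2d and Camk2g encode, is a major protein of the postsynaptic density and is needed for long-term potentiation. CaMKI and CaMKIV act as single kinases that are fully switched on when a CaM kinase kinase, encoded by Camkk1 or Camkk2, phosphorylates them. CaMKIV works in the nucleus on transcription factors such as CREB, and CaMKI gamma, encoded by Camk1g, is anchored to membranes by lipids and promotes dendrite growth in cortical neurons.

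The promoter sequences of the gene that passed the test, Camk1g, and of the kinase gene next to it by p-value, Camkk1, are shown as RefSeq gives them for the GRCr8 assembly. Each is cut to the bases upstream of the outermost annotated start of the gene, 5′ to 3′ on the gene's strand, at chr13:107430333-107430480 (minus strand) for Camk1g and chr10:58135685-58135871 (plus strand) for Camkk1. Capitals mark matches on either strand to the cAMP response element TGACGTCA, its core TGACG (which the whole element contains), the AP-1 element TGANTCA or the GC box GGGCGG.
Camk1g: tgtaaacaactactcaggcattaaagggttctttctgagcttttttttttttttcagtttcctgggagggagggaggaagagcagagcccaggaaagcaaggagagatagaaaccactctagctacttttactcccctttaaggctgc
Camkk1: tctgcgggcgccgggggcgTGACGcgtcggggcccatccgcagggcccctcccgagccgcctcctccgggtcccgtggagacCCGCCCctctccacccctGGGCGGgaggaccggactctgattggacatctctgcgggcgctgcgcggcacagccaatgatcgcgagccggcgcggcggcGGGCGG
The Camk1g stretch of 148 bases held no such match, and the Camkk1 stretch of 187 bases held 1 core and 3 GC boxes.

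Promoter windows of 300 bases, from 250 before the start to 50 after it, were at hand for 8 of the 10 kinase genes. For Camk1g and Camkk1 the start used for the window lay downstream of the outermost annotated start, so the stretches shown above are shorter than 250 bases. The core TGACG was in 3 of the 8 windows (Camk1, Camk2a and Camkk1), against 21.2% of 33469 windows of all genes, and the GC box was in 4 (Camk2b, Camk2d, Camk2g and Camkk1), against 33.1%. The whole element TGACGTCA, the AP-1 element and the E-box CACGTG were in 0 of 8, against 1.83%, 7.33% and 6.42% of all windows. The CArG box of SRF and the MEF2 site were also in 0 of 8, against 1.64% and 3.29%. The Egr site GCGNGGGCG was in the Camk2b window, and in 4.98% of all windows. Camk1g and Camk4 stood apart in base composition: their windows were 47.7% and 45.7% G or C with 1 and 0 CpG dinucleotides, while those of the other 6 kinase genes held 12 to 59 CpG, and the median over all windows was 51.7% and 7 CpG. A match of letters is not a measured binding site.

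After the exposure 1 of the 19 kinase probe sets was higher, that of Camk1g, and 0 were lower at an adjusted p under 0.05 in limma. Over all probe sets 1.97% were higher and 0.599% lower by the same rule (2.56% in either direction). At an unadjusted p under 0.05, 3 of the 19 were higher and 0 lower, against 7.23% and 5.96% of all probe sets. These 3 were both Camk1g probe sets and the Camkk1 probe set. The log2 change was above 0 for 9 kinase probe sets and below 0 for 10, with a median of -0.02, against 0.00 for all probe sets. For 10 of the 19 the whole 95% interval lay within 1.2-fold in either direction. No kinase probe set had a value at the floor that was set for dim signals (an intensity of 53.8).

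**Figure D1:**
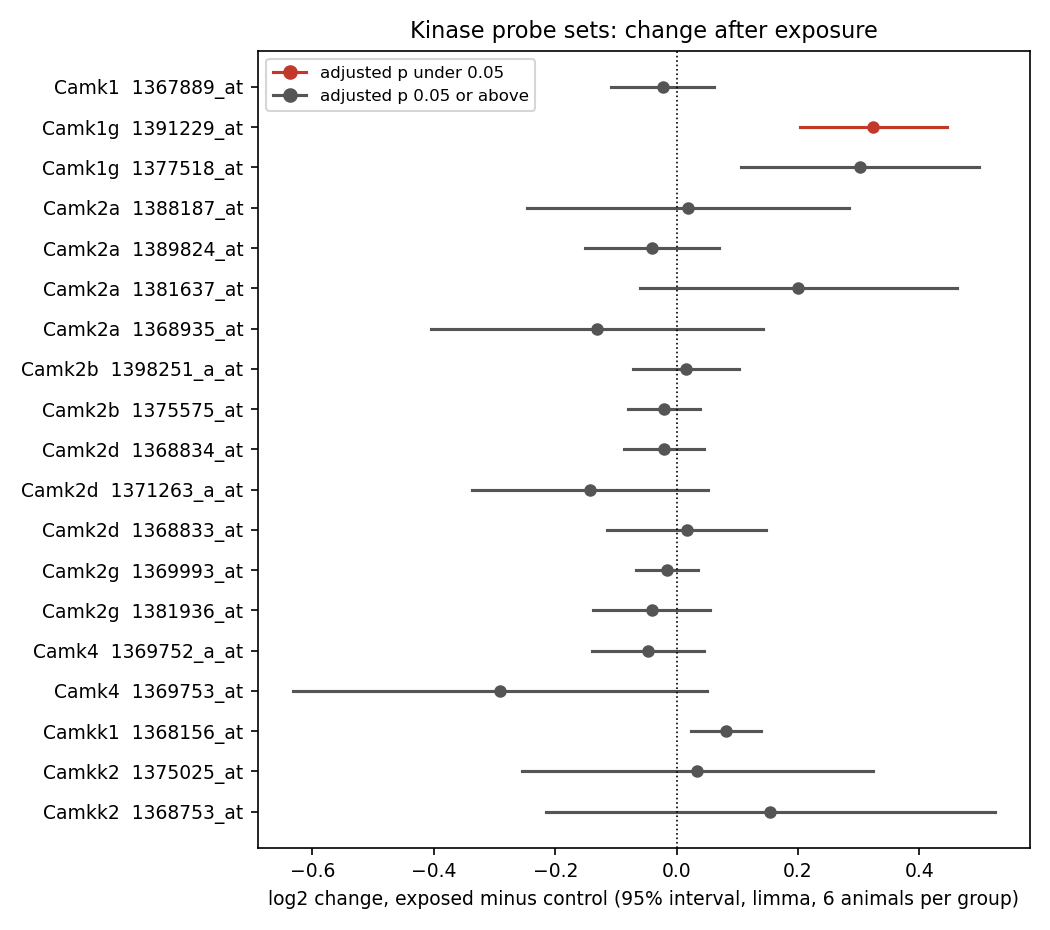
Log2 change (exposed minus control) of each of the 19 kinase probe sets on the horizontal axis, with its 95% interval from limma (6 animals per group); red marks an adjusted p under 0.05. The brightest Camk1g probe set is the one in red, the second Camk1g probe set sits at a similar change of 0.30, and the other 17 have folds between 0.817 and 1.15.

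Camk1g, the gene of CaMKI gamma, read 855, 960.5 and 1025 (lowest, median and highest intensity) in exposed animals at its brighter probe set, 1391229_at, against 691, 767 and 832 in control animals. Every exposed animal lay above every control animal, and the gap between the groups was narrow, with 855 in exposed 3 against 832 in control 3. The means were 959.5 ± 59.6 in exposed animals and 767 ± 55.2 in control animals (SD, n = 6 each). Camk1g rose 1.25-fold there, with a log2 change of 0.32 ± 0.05 (SE, 95% interval 0.20 to 0.45, adjusted p = 0.00994 in limma, rank 347 by p among all probe sets). Such a complete separation upwards was seen for 1 of the 19 kinase probe sets and for 1.98% of all probe sets, and complete separation downwards for 0 of the 19 and for 0.725% of all.

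The second Camk1g probe set, 1377518_at, gave 491, 637 and 700.1 in exposed animals, against 448, 505 and 558 in control animals. All exposed animals but 1 exceeded the highest control, and the exception was exposed 3, the lowest of its group at both probe sets. Its log2 change was 0.30 ± 0.09 (SE, 95% interval 0.11 to 0.50, 1.23-fold), which did not pass (adjusted p = 0.123 in limma). The change of the second probe set differed from that of the first by -0.02 ± 0.05 on the log2 scale (SE, 95% interval -0.14 to 0.09, adjusted p = 0.935 in limma over 6609 pairs of probe sets of 1 gene). The estimates of both probe sets were thus of about the same size, with adjusted p-values on either side of the threshold.

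**Figure D2:**
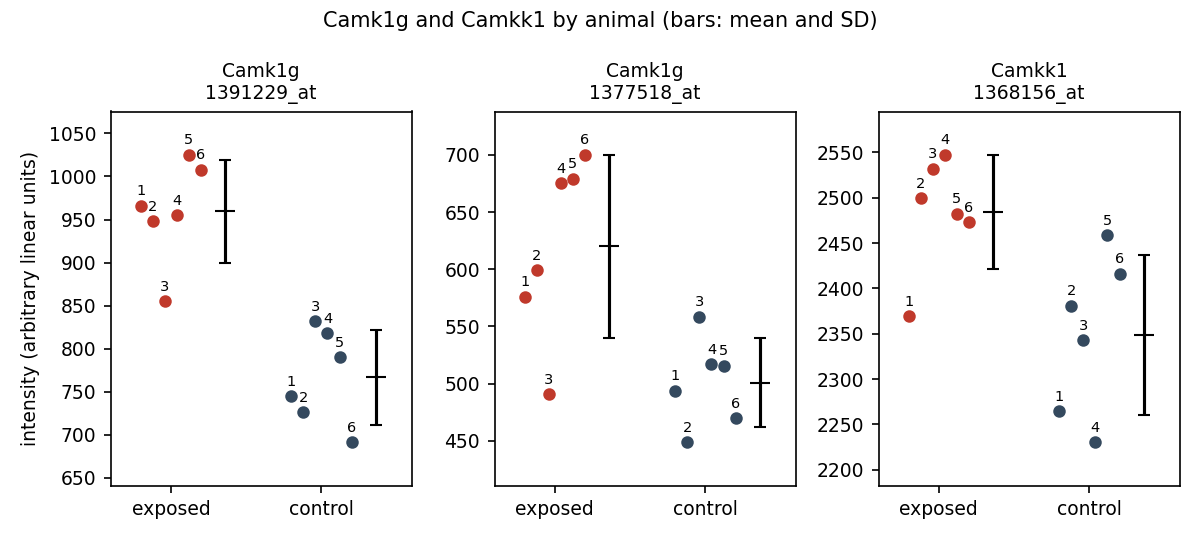
Intensity (arbitrary linear units) of both Camk1g probe sets and of Camkk1 in each animal, with the animal's number beside its point and the mean and SD of each group as a bar. At the left panel the exposed animals start at 855 and the control animals end at 832; in the other panels the groups overlap.

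Exposed 3, the animal nearest to the controls, also stood apart in a measure of RNA quality, the mean log2 intensity of the array's Gapdh and beta-actin controls near the 3′ end minus that of the ones near the 5′ end. It was 0.59 in exposed 3, against 0.39 to 0.44 in the other exposed animals and 0.33 to 0.44 in control animals. Without exposed 3 both Camk1g probe sets passed, with log2 changes of 0.36 (adjusted p = 0.00471) at the brighter and 0.37 (adjusted p = 0.0227) at the second one. Exposed 3 was the lowest exposed animal at both, so leaving it out raises the difference by itself. With this RNA measure as a covariate the log2 changes were 0.38 (adjusted p = 0.00709) and 0.41 (adjusted p = 0.0322). Exposed 3 had the highest value of that measure, so this fit is not separate from leaving it out. Whether RNA quality lowered Camk1g in exposed 3 was not tested. Within the animals numbered 1 to 3 in the labels the log2 change of the brighter probe set was 0.27 (adjusted p = 0.352), and within those numbered 4 to 6 it was 0.38 (adjusted p = 0.253), so neither subset passed alone. At the second probe set these values were 0.15 and 0.45, and whether the subsets differ was not tested.

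Region markers were read beside this result, since in bulk tissue a change in the number of cells of a type and a change of RNA per cell cannot be told apart. The 6 neuron markers summed to 39533 to 41828 in exposed animals and to 39970 to 41812 in control animals. The 4 measured markers of cortex and hippocampus (of 5) summed to 3614 to 4008 in exposed animals and to 3920 to 4443 in control animals. The 8 measured striatum markers (of 9) summed to 16291 to 18409 in exposed animals and to 15935 to 17666 in control animals. In these 3 lists 0 members passed in limma and every measured marker exceeded the floor on at least 1 array. The smallest adjusted p in limma was 0.713 among neuron markers, 0.368 among cortex and hippocampus markers and 0.0527, just over the threshold, among striatum markers. Among the markers of glia, vessels, choroid plexus, olfactory bulb, thalamus, cerebellum and blood 0 passed as well, and Kl, of the choroid plexus, was at the floor on all 12 arrays. With the striatum markers as a covariate the log2 change of the brighter Camk1g probe set was 0.32 (adjusted p = 0.0189). The mean log2 value of these markers differed by only 0.02 between the groups (SD 0.06 in each), so this fit says little about tissue composition. That of the cortex and hippocampus markers differed by -0.09 (exposed minus control, SD 0.07 in each), and the part of these markers was not tested.

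The profiles closest to Camk1g over the 12 animals were those of Ttpal, Jmjd6 and Mchr1, by the root mean square difference of log2 values after each gene's mean was taken off. That distance was 0.07 for each of the 3 genes, against 0.09 for the second Camk1g probe set. Their log2 changes were 0.28 ± 0.04 for Ttpal, 0.25 ± 0.04 for Jmjd6 and 0.24 ± 0.07 for Mchr1, a receptor for melanin-concentrating hormone (SE). Since the genes were chosen for a profile like that of Camk1g, a higher level in exposed animals follows from the choice, and these values are a description.

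The upstream kinases did not pass. Camkk1 read 2369, 2491 and 2548 in exposed animals, against 2230.1, 2362 and 2459 in control animals. All but exposed 1 lay above every control animal, but the difference was small: the means were 2484 ± 63.1 in exposed animals and 2349 ± 88.2 in control animals (SD, n = 6 each). The log2 change of 0.08 ± 0.03 (SE, 95% interval 0.02 to 0.14, 1.06-fold) missed the threshold after adjustment over all probe sets (unadjusted p = 0.0103, adjusted p = 0.166 in limma). It was between 0.06 and 0.09 in each of 28 alternatives, and passed in 0 of them.

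Camkk2, the kinase kinase that also acts on AMP-activated kinase, was read by a pair of probe sets. At 1375025_at it gave 196, 275 and 331 in exposed animals, against 218, 259.5 and 321 in control animals. The log2 change was 0.03 ± 0.13 (SE, 95% interval -0.26 to 0.32). At 1368753_at the intensities were 149, 183 and 272 in exposed animals and 129, 171 and 206 in control animals, with a log2 change of 0.15 ± 0.17 (SE, 95% interval -0.21 to 0.52). Without exposed 5, the highest animal, it was 0.04, and without control 5 it was 0.08. Without exposed 2, the lowest exposed animal, it was 0.22, the highest value with 1 animal left out. The groups overlapped widely at both, and the intervals allow changes of up to 1.25-fold and 1.44-fold upwards. Neither passed (adjusted p = 1 and 0.863 in limma).

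Camk1, the other CaMKI gene with a probe set among the 10 kinase genes, read 1187, 1283 and 1327 in exposed animals, against 1195, 1287 and 1369 in control animals. The groups covered nearly the same range. Its log2 change was -0.02 ± 0.04 (SE, 95% interval -0.11 to 0.06, adjusted p = 1 in limma), so an increase of the size seen for Camk1g lies outside the interval of Camk1.

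Camk2b encodes the CaMKII beta subunit, which binds actin. At 1398251_a_at exposed animals had 7993, 8743 and 9782, against 8431, 8654 and 9042 in control animals. At 1375575_at they had 6041, 6595 and 6792, against 6396, 6601 and 6798 in control animals. The exposed animals were more spread than the control animals at both probe sets, at a coefficient of variation of 6.51% against 2.33% and of 4.11% against 2.02%, and their middles were alike. The log2 changes were 0.02 (95% interval -0.07 to 0.10) and -0.02 (95% interval -0.08 to 0.04), with adjusted p = 1 and 0.921 in limma.

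Camk2g, the gene of the gamma subunit, which can carry calmodulin from the synapse to the nucleus, read 3387, 3536 and 3716 in exposed animals at 1369993_at, against 3470.0, 3562 and 3683 in control animals. The groups overlapped widely, and the log2 change of -0.02 (95% interval -0.07 to 0.04) had the narrowest interval of all 19. At 1381936_at the values were 629.9, 705 and 748 in exposed animals and 679.8, 726 and 745 in control animals, with a log2 change of -0.04 (95% interval -0.14 to 0.06). Neither passed (adjusted p = 0.972 and 0.853 in limma).

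Camk2d, the gene of the delta subunit, had 3 probe sets. The brightest, 1368834_at, read 4219, 4579 and 4788 in exposed animals, against 4359.9, 4636 and 4794 in control animals, a log2 change of -0.02 (95% interval -0.09 to 0.05, adjusted p = 0.966 in limma). The dimmest, 1368833_at, gave 179, 196 and 222 in exposed animals and 179, 195 and 213 in control animals. The groups overlapped widely at both. At 1371263_a_at the intensities were 440.2, 599 and 652 in exposed animals, against 596, 631 and 691 in control animals, with exposed 3 the lowest animal by far. The log2 change there was -0.14 ± 0.09 (SE, adjusted p = 0.594 in limma) over all animals. It was -0.07 without exposed 3, where a smaller decrease follows from leaving out the lowest animal, and -0.0021 with the RNA measure as a covariate. Over all 28 alternatives it ran from -0.18 (without exposed 2) to -0.0021, and it passed in 0 of them.

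Camk2a, whose alpha subunit is the classic forebrain CaMKII and whose mRNA travels into dendrites, had 4 probe sets. The brightest, 1388187_at, read 5034, 5117 and 7167 in exposed animals, against 4731, 5117 and 7341 in control animals. The medians were the same, and 1 animal of each group stood far above the rest: exposed 3 at 7167, with 5587 the next in its group, and control 6 at 7341, with 5652 the next. Its log2 change was 0.02 ± 0.12 (SE, 95% interval -0.25 to 0.28, adjusted p = 1 in limma), and 0.03 without these 2 animals.

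At each of the 3 other Camk2a probe sets exposed 3 was the lowest exposed animal, while control 6 was the highest control animal at 1381637_at and 1368935_at. At 1389824_at the groups gave 984, 1058 and 1153 in exposed animals against 1018, 1111 and 1150.5 in control animals (log2 change -0.04, 95% interval -0.15 to 0.07). At 1381637_at the values were 843, 992 and 1346 in exposed animals, against 745, 904 and 1013 in control animals, with a log2 change of 0.20 ± 0.12 (SE, 95% interval -0.06 to 0.46). Exposed 5 was highest there, and the log2 change was 0.12 without it; it was -0.06 in animals numbered 1 to 3 and 0.46 in those numbered 4 to 6. At this probe set 3 of 6 exposed animals were above every control animal. At 1368935_at they were 306, 361 and 474 in exposed animals and 355, 397 and 515 in control animals, with a log2 change of -0.13 ± 0.12 (SE, 95% interval -0.40 to 0.14). The estimates thus ran in both directions, and none passed (adjusted p = 0.560 to 1 in limma).

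**Figure D3:**
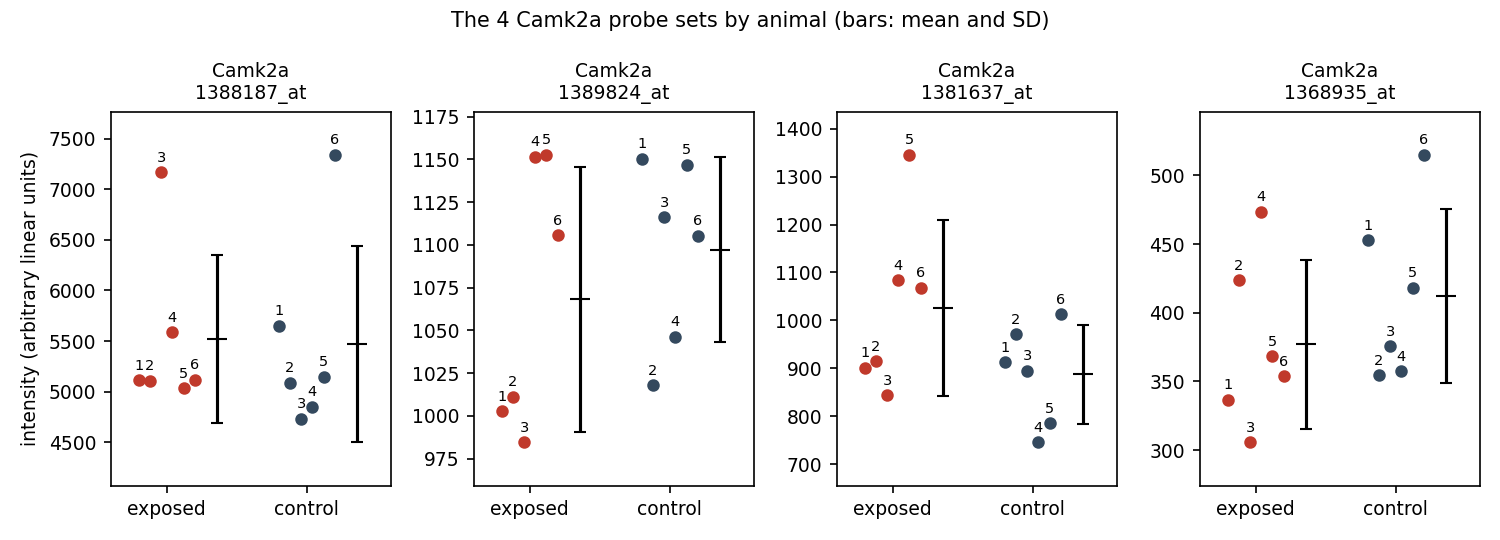
Intensity (arbitrary linear units) of the 4 Camk2a probe sets in each animal, numbered, with the mean and SD of each group as a bar. Exposed 3 and control 6 stand at 7167 and 7341 at the brightest probe set, and exposed 3 is the lowest animal at 984 and at 306 in 2 of the others.

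Camk4, the gene of the nuclear CaMKIV, read 508, 558 and 613 in exposed animals at 1369752_a_at, against 546, 579 and 612 in control animals. The log2 change of -0.05 (95% interval -0.14 to 0.05, adjusted p = 0.795 in limma) was within the spread between animals. At 1369753_at the intensities were 243, 360.2 and 469.5 in exposed animals, against 371, 431 and 465 in control animals. Exposed animals were far more spread there, with a coefficient of variation of 25.0% against 8.18% in control animals, and exposed 3, at 243, and exposed 5, at 270.4, were the lowest, with 3 of 6 exposed animals below every control animal. The log2 change was -0.29 ± 0.15 (SE, 95% interval -0.63 to 0.05, adjusted p = 0.487 in limma), the largest decrease estimated among the 19. It was -0.11 with the RNA measure as a covariate. It was -0.07 without exposed 3, exposed 5 and control 4, where a smaller decrease follows from leaving out the lowest exposed animals. Over all 28 alternatives it ran from -0.38 (without exposed 4) to -0.07, and it passed in 0 of them. The difference between both Camk4 probe sets did not pass (adjusted p = 0.568 in limma), nor did that of any of the 10 kinase pairs, against 0.908% of 6609 pairs that passed.

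Genes around the kinases were read at the brightest probe set of each gene in 7 lists that held 91 symbols, 86 of them measured. Of these, 2 genes were higher, 1 was lower and 83 did not pass in limma, against 2.62% higher and 0.844% lower among 14217 genes (3.46% in either direction). The medians of the lists ran from -0.04 to 0.01 on the log2 scale, and that of all genes was 0.00.

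Among substrates and nuclear targets of the kinases 1 of 18 measured genes rose and 0 fell. Srf, the transcription factor that binds serum response elements, had 1483 to 1686 in exposed animals and 1198 to 1352 in control animals, with no overlap. It rose 1.22-fold (log2 change 0.28 ± 0.04, adjusted p = 0.00191 in limma), close in size to Camk1g. Its dimmer probe sets had log2 changes of 0.15 and 0.21 and did not pass (adjusted p = 0.138 and 0.340). Mef2d, a transcription factor, and Hdac5, a histone deacetylase that CaM kinases can drive out of the nucleus, had log2 changes of 0.08 and 0.11 and did not pass (adjusted p = 0.357 and 0.361). The dimmer probe sets of Mef2d and Hdac5 had log2 changes of -0.04 and 0.02 and did not pass.

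Of calcineurin, the calmodulin-dependent phosphatase that often opposes the kinases, and its partners, 1 of 14 rose and 0 fell. Rcan2, a regulator of calcineurin, had 4804 to 5356 in exposed animals, against 4570.1 to 4827 in control animals (log2 change 0.11 ± 0.03, 1.08-fold, adjusted p = 0.0492 in limma, 5 of 6 exposed animals above every control). The dimmer Rcan2 probe set had a log2 change of 0.08 ± 0.08 (SE) and did not pass (adjusted p = 0.839 in limma). Of other kinases and kinase-like proteins grouped with the calmodulin-regulated ones, 0 of 13 rose and 1 fell. Mylk, a myosin light chain kinase of smooth muscle, had 582 to 617.2 in exposed animals and 617.0 to 654 in control animals (log2 change -0.08 ± 0.02, adjusted p = 0.0438). Both calls were at the edge: with 1 animal left out in turn Rcan2 passed in 1 of 12 fits and Mylk in 2 of 12.

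In the remaining 4 lists 0 genes passed. Of calmodulin and calmodulin-binding proteins 6 of 8 were measured, and Calm2, a calmodulin gene, had 17053 to 18295 in exposed animals and 17834 to 18475 in control animals (log2 change -0.03, adjusted p = 0.662 in limma). Of inhibitors and phosphatases of the kinases 3 of 4 were measured: Ppm1f, a phosphatase that removes phosphate from CaMKII, had a log2 change of 0.10 (adjusted p = 0.215), Camk2n1, an inhibitor of CaMKII, one of -0.14 (adjusted p = 0.700), and Camk2n2, its relative, one of -0.04 (adjusted p = 0.986). A dimmer probe set had a log2 change of -0.04 for Ppm1f and of -0.09 for Camk2n1, and another one of Ppm1f lay at the floor. Among 10 anchors of CaMKII at the synapse the smallest adjusted p was 0.0688, for Actn1, an alpha-actinin, at a log2 change of 0.13. Grin2b, the NMDA receptor subunit to which CaMKII binds, had a log2 change of -0.16 (adjusted p = 0.387). Its dimmer probe set went the other way, at a log2 change of 0.11 (adjusted p = 0.886). Among 22 genes of calcium entry and release the smallest adjusted p was 0.148, for Cacna1b, an N-type channel subunit, at a log2 change of -0.11.

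**Figure D4:**
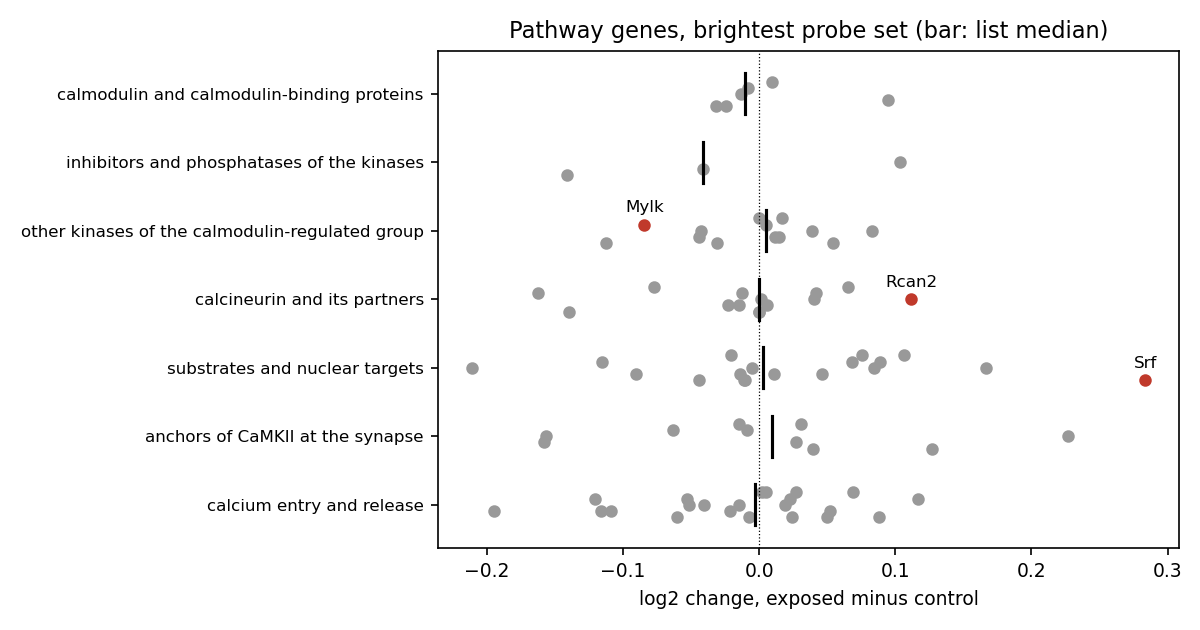
Log2 change (exposed minus control, brightest probe set) of the 86 measured genes of 7 lists around the kinases, 1 point per gene, with the list's median as a black bar. The genes that passed, in red, are Srf and Rcan2 to the right of 0 and Mylk to the left; the medians lie between -0.04 and 0.01.

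Camk1g was followed through 28 alternatives of the processing. The log2 change of its brighter probe set stayed between 0.27 and 0.38, and 25 alternatives kept the call, among them all 12 that left out 1 animal (adjusted p 0.00471 to 0.0280 in limma). The 3 exceptions all used the animals' label numbers. The second probe set ran from 0.15 to 0.45 and passed in 3 of 28. The mean of both probe sets, tried after seeing the data, gave a log2 change of 0.31 (adjusted p = 0.0299).

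**Figure D5:**
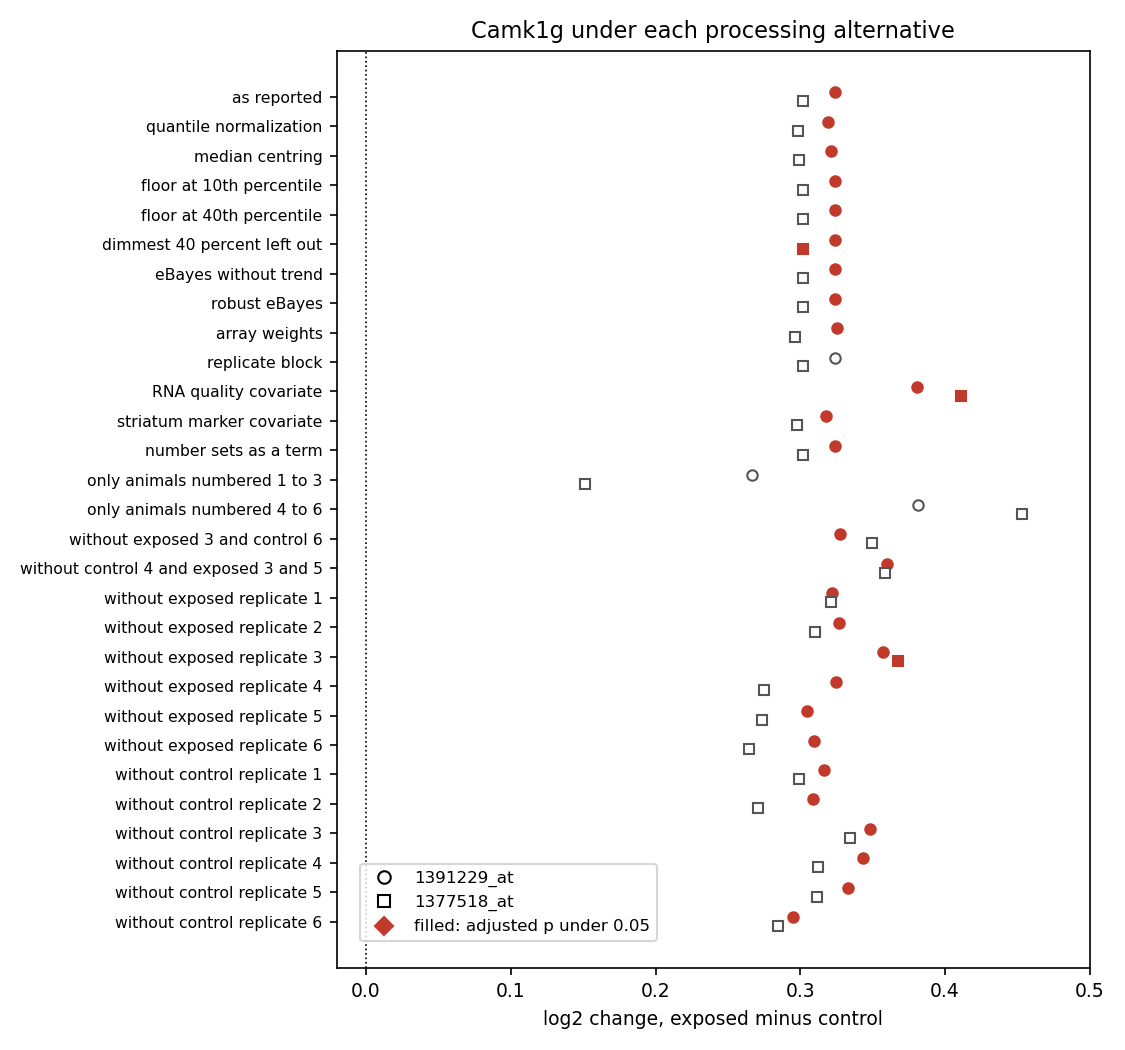
Log2 change of the Camk1g probe sets (circles, 1391229_at; squares, 1377518_at) under each alternative listed down the page, filled in red where the adjusted p was under 0.05. All values lie right of 0; circles run from 0.27 to 0.38 and squares from 0.15 to 0.45.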

How the data were processed

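Total RNA of the forebrain of 12 rats was extracted with Trizol, cleaned on RNeasy columns and labelled with biotin as cRNA by the usual Affymetrix procedure, per the labels' protocols. The authors deposited linear intensities, 1 for each probe set on each array, between 12.6 and 34828. Background correction, summary over probes and any normalization before deposit are steps that the sources used here do not give. The array medians (235 to 245) differed by 0.06 on the log2 scale, under a limit of 0.1, so no further normalization was made. Precision is limited by having 6 arrays per group. Values under the 20th percentile (53.8) were set to it, and intensities were transformed to log2 and fitted with lmFit and eBayes (with a trend) of limma 3.58.1 in R 4.3.3 with the group as the only term, with 57 array control probe sets left out; an adjusted p under 0.05 passed. Where a gene had more than 1 probe set, the log2 value of each dimmer one minus that of the brightest was fitted likewise. The fits were tested on simulated data. Symbols came from the platform annotation, checked through Entrez IDs in the RefSeq table (0 changed, 68 unmatched). The genes named are all kinase members, at most 3 genes with the smallest p of each of 7 lists, and the 3 genes with the profile closest to the kinase probe set with the smallest p; Gp5 and LOC100910237 were chosen after their values were seen. The members and lists were chosen with earlier results of these data known. Alternatives covered normalization, the floor, a filter, the variance model, array weights, covariates, the label numbers and leaving out animals. Genome positions of probes are not given, since probe sequences were not used here.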

Additional observations from a re-analysis of the deposited data

Results flagged for a closer look

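In 38 groups of 6 animals (19 kinase probe sets, exposed and control), 2 held 1 animal far from the rest by Dixon's criterion, the distance to the next animal as a part of the range of the group (0.741 and 0.647). Chance gives about 1 in 20 such groups. Both concern the brightest Camk2a probe set, 1388187_at. Exposed 3 read 7167, against 5034 to 5587 in the other exposed animals, and control 6 read 7341, against 4731 to 5652 in the other control animals. The log2 change of Camk2a was -0.06 without exposed 3 and 0.11 without control 6, and passed in neither (adjusted p = 1 and 0.814 in limma).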

How the results depend on the processing

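The sign of both Camk1g probe sets was positive in all 28 alternatives, and no called value changed its sign. The reported counts are 610 probe sets higher, 186 lower, 1 kinase probe set higher and 60 pairs of probe sets that differed. With the dimmest 40% of probe sets left out, 2 kinase probe sets were higher (both of Camk1g), and 20 pairs of probe sets differed. With the floor at the 40th percentile 118 pairs did. With array weights 314 probe sets were lower and 96 pairs differed. With the RNA covariate 72 probe sets were lower and 2 kinase probe sets higher. Without exposed 3 and control 6, an alternative chosen after seeing the data, 107 probe sets were lower, and without exposed 3, exposed 5 and control 4 the counts were 82 lower and 26 pairs. With only animals numbered 1 to 3, 66 probe sets were higher, 9 lower and 4 pairs differed, and with those numbered 4 to 6 the counts were 31, 2 and 6. In each subset 0 kinase probe sets passed, in fits with fewer samples. With 1 animal left out in turn, the counts were 451 to 622 higher, 103 to 182 lower, 1 to 2 kinase probe sets and 40 to 59 pairs; the lower count dropped most without control 3 (103), control 5 (112), control 6 (117) or exposed 1 (104), and 2 kinase probe sets passed without exposed 3. The replicate number as a block gave 359 higher, 76 lower, 0 kinase probe sets and 15 pairs, with Camk1g at an adjusted p of 0.104. Same-numbered animals correlated at -0.08 to 0.16 in their deviations, over 0.1 in 2 of 6 pairs, and 2 of 6 exposed animals correlated best with their own number. The meaning of the numbers is unknown here, and 6 weak correlations cannot settle whether animals of the same number belong together. The fit with the number as a block therefore stands beside the main fit. The causes of these shifts in the counts were not tested. The spread between animals at both Camkk2 probe sets and at Camk4 1369753_at limits what can be seen there.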

Other observations

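The profile of the brightest Camk2a probe set over the 12 animals was most like those of Gp5, a platelet glycoprotein, and LOC100910237, by the root mean square difference of log2 values (0.10 and 0.11). Gp5 read 107 in exposed 3 and 104 in control 6, against 76.6 to 86.6 in the other 10 animals. LOC100910237 read 71.7 in exposed 3 and 84.6 in control 6, against 29.4 to 62.0 in the other 10, partly under the floor of 53.8 to which values were set before the likeness was computed. Both genes were chosen for their likeness to Camk2a, so high values in these 2 animals follow from the choice.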
